A study of Mus musculus with 14 samples.

Results

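Interleukin 6 (Il6), the acute-phase glycoprotein Lrg1 and the genes through which interleukin 6 is sensed and relayed were followed on 14 mouse expression arrays. The 10 genes were Il6, its receptor chains Il6ra and Il6st, Lrg1, Socs3, Stat3, and the NF-kB-responsive genes Ccl2, Cxcl1, Tnfaip3 and Nfkbia. They were found by gene symbol and are covered by 26 of the 45037 probe sets (groups of short array features that together read one transcript) on the array. Il6 and Lrg1 were picked because they rose in liver sinusoidal endothelial cells of Cre-positive mice, so for these 2 genes every comparison that uses those cells is a description without a test. The other genes were taken for their place in the pathway, with earlier results of these data known.

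The arrays, of Affymetrix's 3′-biased mouse expression design, were hybridised with RNA from liver sinusoidal endothelial cells (LSEC), lung endothelial cells and whole thymus. All mice were on the FVBn background and carried the L/L (floxed) form of Fk1, Fk2 and Afx; these are older names of the transcription factors Foxo1, Foxo3 and Foxo4. The experimental mice were MxCre+ (called Cre+ here) and the control mice were MxCre-, with 3 LSEC, 2 lung and 2 thymus arrays of each genotype. The Mx promoter that drives Cre is interferon-inducible and active in many cell types, so recombination is not limited to endothelium. The labels do not say how Cre was induced, whether controls received the inducer, how old the mice were, by what method cells were isolated or whether each replicate is a different mouse. The p-values therefore measure only the spread between these samples, which may be technical.

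Interleukin 6 binds its receptor Il6ra, and the complex engages the shared signalling chain gp130, encoded by Il6st, which activates JAK kinases and the transcription factor STAT3. STAT3 induces Socs3, which inhibits gp130 and its JAKs and so limits the signal, and in the liver it drives acute-phase genes, among them Lrg1. Transcription of Il6, and of the chemokines Ccl2 and Cxcl1, is induced by NF-kB, whose own inhibitors Nfkbia (IkB-alpha) and Tnfaip3 (A20) are NF-kB targets too. FoxO factors are transcription factors restrained by growth-factor signalling through AKT and are known as regulators of endothelial growth.

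Because the genes of this pathway are commonly described as targets of NF-kB, C/EBP, AP-1 and STAT factors, the 250 bases before the transcription start were read from RefSeq (build GRCm38.p6) for the members, of which 9 of 10 genes were matched, with 10 windows. The windows of Il6, Lrg1 and Socs3 are printed 5′ to 3′ on the gene's strand, since the levels of these genes are the ones described at length; capitals mark motif matches. The Il6 window is chr5:30012864-30013113 (plus strand), the Lrg1 window chr17:56121947-56122196 (minus strand) and the Socs3 window chr11:117969367-117969616 (minus strand).
Il6: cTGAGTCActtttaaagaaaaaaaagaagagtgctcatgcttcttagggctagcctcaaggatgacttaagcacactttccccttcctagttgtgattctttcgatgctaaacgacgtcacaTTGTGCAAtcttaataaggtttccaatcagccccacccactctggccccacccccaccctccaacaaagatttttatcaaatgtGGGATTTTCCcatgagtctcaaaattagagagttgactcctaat
Lrg1: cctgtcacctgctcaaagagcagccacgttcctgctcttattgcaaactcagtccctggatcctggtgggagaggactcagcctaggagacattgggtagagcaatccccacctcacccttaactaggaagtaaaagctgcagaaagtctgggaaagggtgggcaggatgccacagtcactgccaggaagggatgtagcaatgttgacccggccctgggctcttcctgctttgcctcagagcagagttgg
Socs3: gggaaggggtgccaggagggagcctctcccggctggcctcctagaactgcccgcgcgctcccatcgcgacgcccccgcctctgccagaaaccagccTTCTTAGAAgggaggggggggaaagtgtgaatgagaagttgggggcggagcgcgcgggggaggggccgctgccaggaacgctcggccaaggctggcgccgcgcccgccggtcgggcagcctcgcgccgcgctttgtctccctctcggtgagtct

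The motifs were searched on both strands as GGGA followed by any 2 bases and TTCC (kappaB), TTCNNNGAA (STAT), GTAAACA (FoxO), TTGCNNAA (C/EBP) and TGANTCA (AP-1), and their letters were chosen with these sequences in view. Il6 held an AP-1 match 249 to 243 bases, a C/EBP match 128 to 121 bases and a kappaB match 44 to 35 bases before the start. Socs3 held a STAT match 154 to 146 bases before the start, and the Lrg1 window held none of the 5 motifs. The kappaB letters were also in the windows of Cxcl1, where matches on opposite strands overlap, and of Nfkbia, which makes 3 of 10 windows against 1.21% of 32851 promoter windows of the same length. An AP-1 match was in 2 of 10 windows (Il6 and Tnfaip3) against 6.75% of all, a C/EBP match in 1 against 9.56%, a STAT match in 1 against 7.02% and a FoxO match in 0 against 3.17%. A match shows only that these letters are present, and a window without one says nothing about the factor.

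The deposited values were log2 levels, and array medians lay between 6.75 and 7.04. Across probe sets, the correlation was 0.968 to 0.987 within a group and 0.529 to 0.855 between tissues. The 3 deleted genes gave a partial check of the labels: 3 of 4 Foxo1 probe sets were lower in Cre+ LSEC (log2 difference -0.93, -2.10 and -3.56) and in Cre+ thymus (-1.19, -1.02 and -1.80), and 1 of 2 Foxo4 probe sets was lower in both (-2.15 and -3.24). In lung the same Foxo1 probe sets differed by -0.51, -1.06 and -1.29, which did not pass the test although the arrays of the genotypes did not overlap; Foxo3 was lower on 2 of 3 probe sets in LSEC (-0.53 and -0.58) and higher on 1 in thymus (+0.68). Where these probe sets lie relative to the deleted exons is not given in the files. All 10 LSEC markers (Stab2, Lyve1 and others) were above the limit for dim probe sets in the LSEC arrays, all 10 pan-endothelial markers were above it in LSEC and lung, and all 9 T cell markers were above it in thymus; the lung arrays also held all 8 lung epithelial markers above the limit, at a mean log2 level of 9.86 to 10.45.

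Il6 was low in control LSEC and high in Cre+ LSEC. Its log2 level was 4.22, 4.25 and 4.49 in the 3 control LSEC arrays and 8.45, 8.76 and 7.53 in the 3 Cre+ LSEC arrays. Every Cre+ array lay far above every control array, the nearest pair being 7.53 and 4.49. The means were 4.32 ± 0.15 (SD, n = 3) and 8.25 ± 0.64 (SD, n = 3), a difference of 3.92 on the log2 scale or 15.2-fold, which ranked 1 among the 27022 probe sets that passed the filter on dim values. Since Il6 was chosen by this difference, it is given as a description. The filter limit was a log2 level of 6.87, and control LSEC lay below it, where array levels hold mostly background: measured from the limit, the Cre+ mean was 1.38 higher, or 2.60-fold, so that the size of the rise is less certain than its presence.

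In lung endothelial cells Il6 stood at 7.54 and 6.81 in controls and 6.21 and 6.999 in Cre+ arrays, which overlap. Here the genotype contrast does not use the LSEC arrays' levels, and limma gave a log2 difference of -0.57 (95% interval -1.77 to 0.63), which did not pass. In thymus the levels were 1.92 and 3.71 in controls and 3.38 and 2.77 in Cre+ arrays, all far below the limit, with a difference of +0.26. From high to low the groups ran Cre+ LSEC, control lung, Cre+ lung, control LSEC, Cre+ thymus and control thymus. Cre+ LSEC and control lung were separated by less than their spread, since the lowest Cre+ LSEC array (7.53) was under the higher control lung array (7.54), and both lung groups overlapped, as did both thymus groups. Control LSEC overlapped neither its upper nor its lower neighbour in that order.

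Lrg1, a secreted leucine-rich glycoprotein made by liver and endothelium and known to modify TGF-beta signalling in vessels, was also higher in Cre+ LSEC. Its log2 level was 4.89, 5.31 and 5.43 in control LSEC and 7.61, 6.77 and 7.69 in Cre+ LSEC, again without overlap. The means were 5.21 ± 0.28 and 7.36 ± 0.51 (SD, n = 3 each), a difference of 2.15 or 4.44-fold that ranked 22 of 27022 and is a description. Control LSEC lay below the filter limit for Lrg1 as well, and the Cre+ mean exceeded that limit by 0.49, or 1.40-fold. The array lowest for Lrg1 among the Cre+ LSEC (replicate 2) was the one highest for Il6, and the array lowest for Il6 (replicate 3) was highest for Lrg1.

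Unlike Il6, Lrg1 was highest in lung, at 9.20 and 9.42 in controls and 9.89 and 10.2 in Cre+ arrays. The lung arrays of the genotypes did not overlap, and the log2 difference was +0.73 (95% interval 0.0058 to 1.46), but it did not pass (limma adjusted p = 0.9999). In the same lung arrays the pan-endothelial markers were lower in Cre+ without overlap (mean log2 level 9.56 to 9.89 in control, 9.20 to 9.32 in Cre+, median difference -0.39). Of these markers 0 of 10 passed in limma, where 0.046% of all genes did. An unadjusted p under 0.05 was reached by 3 of 10, against 4.73% of all probe sets. The part of these markers in the Lrg1 value was not tested. In thymus Lrg1 stood at 4.19 and 3.44 in controls and 4.21 and 4.67 in Cre+ arrays, below the limit, with a difference of +0.63 (95% interval -0.10 to 1.35) that did not pass. The order of groups was Cre+ lung, control lung, Cre+ LSEC, control LSEC, Cre+ thymus and control thymus. No neighbours in this order overlapped, although the thymus groups were parted only by 4.19 against 4.21.

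**Figure D1:**
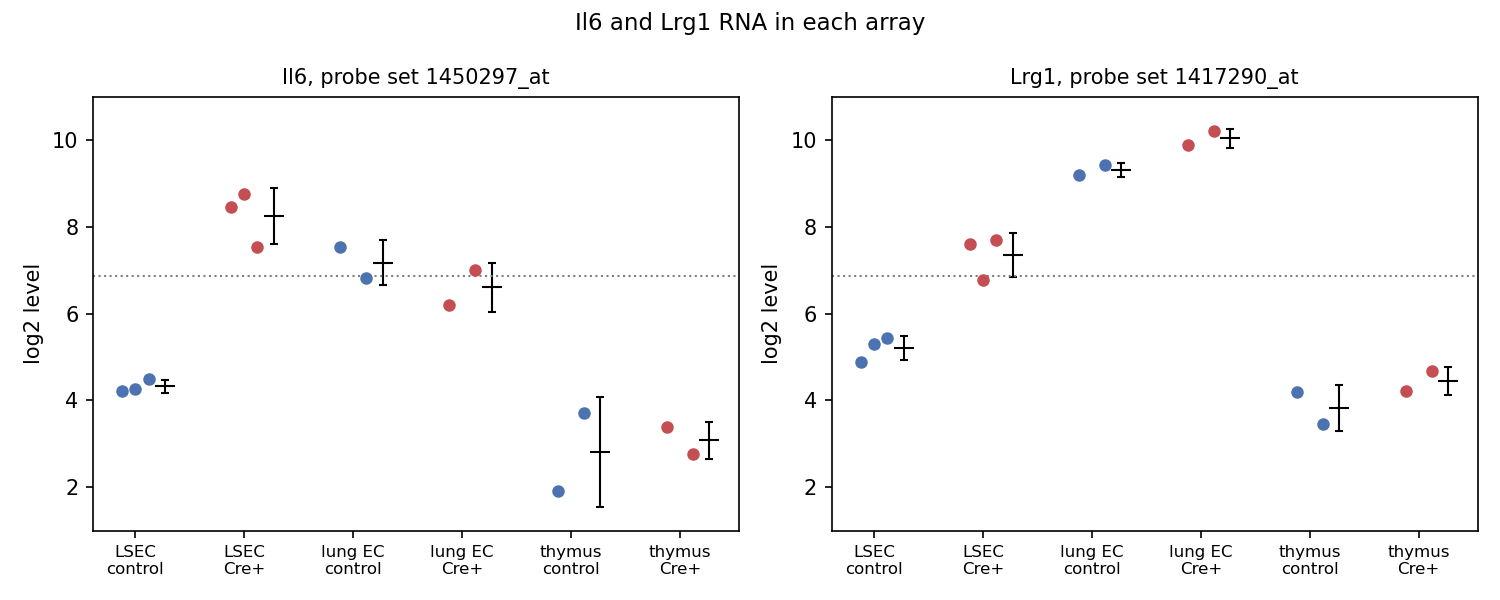
Log2 level of Il6 and Lrg1 on each of the 14 arrays (dots) by group, with the group mean and SD (black bar) and the filter limit of 6.87 (dotted line). Il6 in Cre+ LSEC reaches the level of control lung, whereas Lrg1 in Cre+ LSEC stays under both lung groups; control LSEC and thymus lie under the limit for both genes.

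Markers of several cell types moved with Il6 and Lrg1 in LSEC. For the counts below, 2.51% of all 13035 genes passed as higher and 2.94% as lower in Cre+ LSEC. Of all 27022 probe sets, 19.1% had an unadjusted p under 0.05. The 10 LSEC markers summed to linear levels of 16150 to 23890 in control and 4505 to 8336 in Cre+ LSEC, and 7 of 10 fell, with a median log2 difference of -1.50. Of the 10 mast cell genes 7 were tested: 3 were higher (the tryptase Tpsab1, the histidine decarboxylase Hdc and the carboxypeptidase Cpa3) and Kit was lower by 1.17. The 3 were under the filter limit in control LSEC and passed the filter only through LSEC, where Cre+ was high, so they had to differ; measured from the limit their Cre+ means were 2.03, 1.54 and 1.31 higher. The summed mast cell level ranged from 1473 to 1938 in control and from 1807 to 3339 in Cre+ LSEC. The 8 neutrophil genes summed to 1009 to 1080 in control and 1333 to 3364 in Cre+ LSEC, with 0 of 4 tested genes passing in limma and 1 at an unadjusted p under 0.05. Pan-endothelial markers had 2 of 10 lower, and their mean log2 level of 9.75 to 10.02 in Cre+ lay under the 10.2 to 10.6 of control LSEC on every array. Mesenchymal markers had 1 of 10 lower and 6 at an unadjusted p under 0.05, with a median of -0.56. None of these genes was at 0 throughout an LSEC group.

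Array by array the markers ran differently from one another. Tpsab1 read 4.82, 6.08 and 5.28 in the controls and 9.38, 10.1 and 7.21 in Cre+ LSEC, so that its order over the Cre+ arrays was that of Il6. Cpa3 had the same order over the Cre+ arrays (8.55, 9.17 and 6.82). Hdc did not (9.185, 7.45 and 8.58), being lowest in replicate 2, where Il6 was highest. The neutrophil gene S100a8 read 5.31, 5.19 and 6.48 in the controls and 10.2, 7.60 and 7.95 in Cre+ LSEC (difference +2.91, limma adjusted p = 0.0507). Its control mean of 5.66 was under the filter limit, so the size of this difference is uncertain. Hepatocyte markers, which bear on Lrg1 because hepatocytes make it, summed to 706 to 784 in control and 693 to 881 in Cre+ LSEC. Of 9 with a probe set 2 were tested, Ttr and Apob, and 0 passed in limma. The transthyretin gene Ttr read 7.61, 7.46 and 7.59 in the controls and 8.17, 8.04 and 8.09 in Cre+ LSEC (limma adjusted p = 0.0526). Its mean was 8.18 in control lung and 7.95 in control thymus, so it is not particular to liver here. Albumin stood at 6.74, 6.63 and 6.88 against 7.05, 5.91 and 6.86. The dim genes Alb, Apoa1, Fga, Fgb, Ahsg and Hpx had lower means in Cre+ than in control LSEC, and Apob and Tat slightly higher ones. The macrophage list had 0 of 9 genes passing in limma, and 0 at an unadjusted p under 0.05. Its markers were nonetheless bright, with a summed level of 10640 to 23410 in control and 8531 to 18440 in Cre+ LSEC. Their mean log2 level was 8.91, 8.92 and 10.03 in the controls and 9.805, 8.85 and 8.60 in Cre+ LSEC, so it varied widely within both genotypes. The lung endothelial list had 1 of 7 genes higher, against 2.51% of all genes. It summed to 3591 to 4356 in control and 7894 to 9284 in Cre+ LSEC, and to 3533 to 3719 in control lung. The rise of this sum was mostly Ednrb, at 10.65 in control LSEC, 12.5 in Cre+ LSEC and 8.86 in control lung. Tbx2, Icam2 and Nostrin also stood higher in Cre+ LSEC. Car4 (7.37 and 7.36), Tbx3 (8.70 and 8.69) and Foxf1 (8.11 and 8.05) hardly differed between control and Cre+ LSEC. The part of these cells in the Il6 and Lrg1 levels was not tested, and in a bulk sample more cells of a type and more RNA per cell cannot be told apart.

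**Figure D2:**
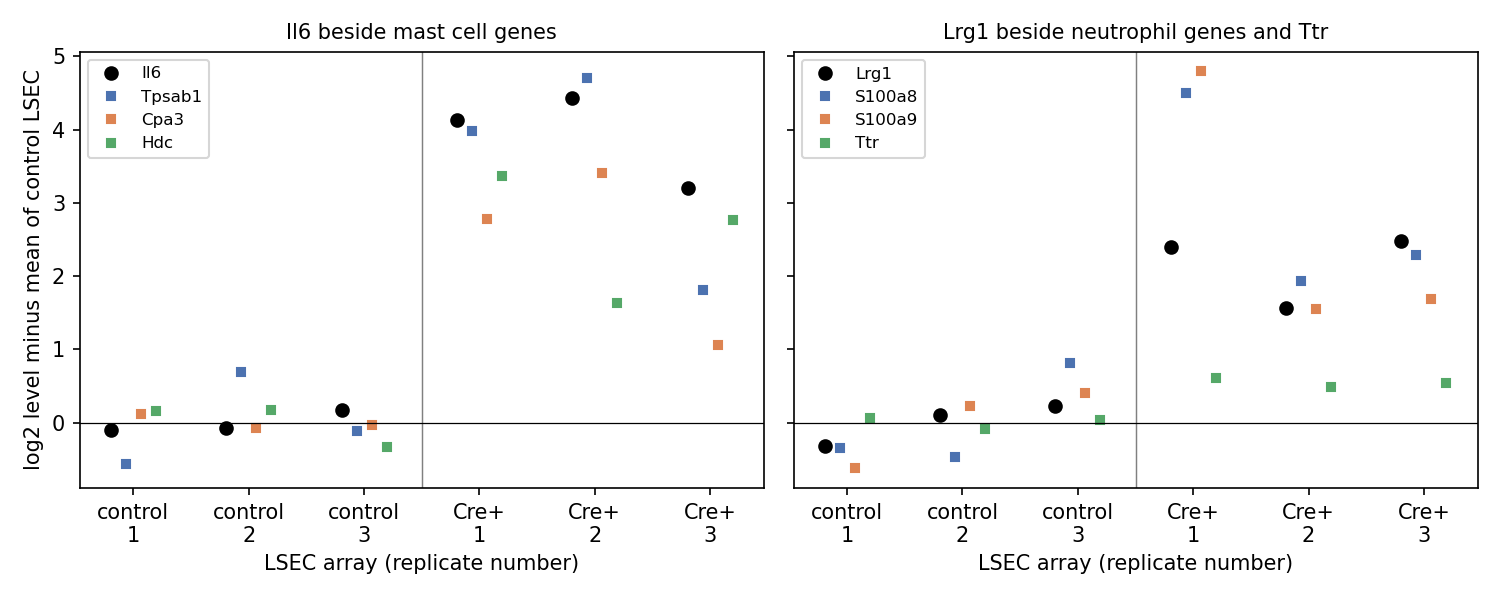
Log2 level on each LSEC array minus the mean of the 3 control LSEC arrays, for Il6 with the mast cell genes Tpsab1, Cpa3 and Hdc (left) and for Lrg1 with the neutrophil genes S100a8 and S100a9 and the hepatocyte gene Ttr (right). For each gene the Cre+ points lie above its own control points. Il6, Tpsab1 and Cpa3 are lowest in Cre+ replicate 3, whereas Hdc is lowest in Cre+ replicate 2. S100a8 and S100a9 are highest in Cre+ replicate 1. The control LSEC means of these 2 genes are under the filter limit, and S100a9 was dim and not tested. Most other hepatocyte genes, all dim, had lower means in Cre+ than in control LSEC.

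The receptor chains did not move with the ligand. Il6st, the signalling chain, read 10.87, 10.80 and 10.52 in the controls and 10.72, 10.46 and 10.92 in Cre+ LSEC on its brightest probe set, and the groups overlapped. Over its 4 probe sets the differences lay between -0.05 and +0.02, with 95% intervals inside -0.54 to 0.58, so a change up to that size is not excluded by these intervals. Il6ra, the ligand-binding chain, differed by +0.07 on the brighter probe set (7.25 to 7.39 in control, 7.28 to 7.45 in Cre+) and by -0.32 on the dimmer one, and neither passed. Across tissues Il6st was at 9.62 to 10.9 on the brightest probe set and Il6ra at 6.93 to 7.58, near the filter limit.

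Socs3, the STAT3-induced inhibitor of gp130 signalling, was lower in Cre+ LSEC on 1 of 3 probe sets. On that probe set, the second brightest, it read 8.27, 7.98 and 8.19 in the controls and 7.79, 7.57 and 7.74 in Cre+ LSEC, without overlap, a fall of 0.45 on the log2 scale (SE 0.099, limma adjusted p = 0.0248). The brightest probe set read 8.45, 8.44 and 8.50 in the controls and 8.24, 8.15 and 8.21 in Cre+ LSEC, also without overlap, but the difference of -0.26 did not pass (limma adjusted p = 0.148). On the third the groups overlapped and differed by -0.27 (limma adjusted p = 0.351). By the array maker's naming the suffix x_at marks probe sets that may bind other transcripts, and both of the brighter Socs3 probe sets carry it.
The single Socs3 call was lost when any of 4 LSEC arrays was left out: adjusted p was 0.0811 without control replicate 1, 0.0724 without control replicate 3, 0.0750 without Cre+ replicate 2 and 0.0569 without Cre+ replicate 3. It was also lost in the values as deposited (0.0700), with no filter (0.0682) and in a fit of only the LSEC arrays (0.123).

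Stat3 itself was higher in Cre+ LSEC on 1 of 4 probe sets. That probe set, the brightest over the 6 groups, read 8.88, 8.90 and 9.001 in the controls and 9.59, 9.23 and 9.37 in Cre+ LSEC, every Cre+ array above every control, a difference of +0.47 (95% interval 0.24 to 0.70, limma adjusted p = 0.0267). The next read 9.79, 9.64 and 9.68 against 10.07, 9.93 and 10.15, a non-overlapping difference of +0.35 that did not pass (limma adjusted p = 0.0777). The other 2 differed in opposite directions, by -0.26 and +0.64, and did not pass, so the probe sets of Stat3 disagree. Leaving out control replicate 1 or 2 or Cre+ replicate 1 or 3 ended the call, with adjusted p of 0.0790, 0.0791, 0.0806 and 0.0681. So did dropping the filter (0.0730), averaging the Stat3 probe sets (0.0780) and fitting only the LSEC arrays (0.113).

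Among the NF-kB-responsive genes, Ccl2, the chemokine that draws monocytes, fell. It read 11.87, 12.08 and 11.86 in the controls and 10.99, 11.40 and 10.49 in Cre+ LSEC; all Cre+ arrays were lower, by 0.97 on average (SE 0.186, 95% interval -1.38 to -0.57, limma adjusted p = 0.0121), which is 1.97-fold. Leaving out any one array kept this call, with adjusted p between 0.00215 and 0.0480, although a fit of only the 6 LSEC arrays did not call it (0.0953). Cxcl1, which draws neutrophils, read 11.20, 10.92 and 11.84 in the controls and 11.28, 12.47 and 11.09 in Cre+ LSEC, with 1 Cre+ array above all others and the rest mixed. Its 3 probe sets differed by +0.29 to +0.40, and none passed.

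Tnfaip3, the ubiquitin-editing enzyme that restrains NF-kB signalling, read 8.96, 8.90 and 9.14 in the controls and 9.50, 9.65 and 9.25 in Cre+ LSEC. The groups did not overlap on either of its probe sets, but the differences of +0.47 and +0.43 did not pass (limma adjusted p = 0.0519 and 0.0837). The first passed without Cre+ replicate 3 (adjusted p = 0.0329), with median centring (0.0307) and in the values as deposited (0.0270). Nfkbia, the inhibitor that holds NF-kB in the cytoplasm, was among the brightest transcripts, at 12.90 to 13.06 in control and 13.01 to 13.08 in Cre+ LSEC. Its 5 probe sets differed by 0.00 to +0.18 and none passed.

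**Figure D3:**
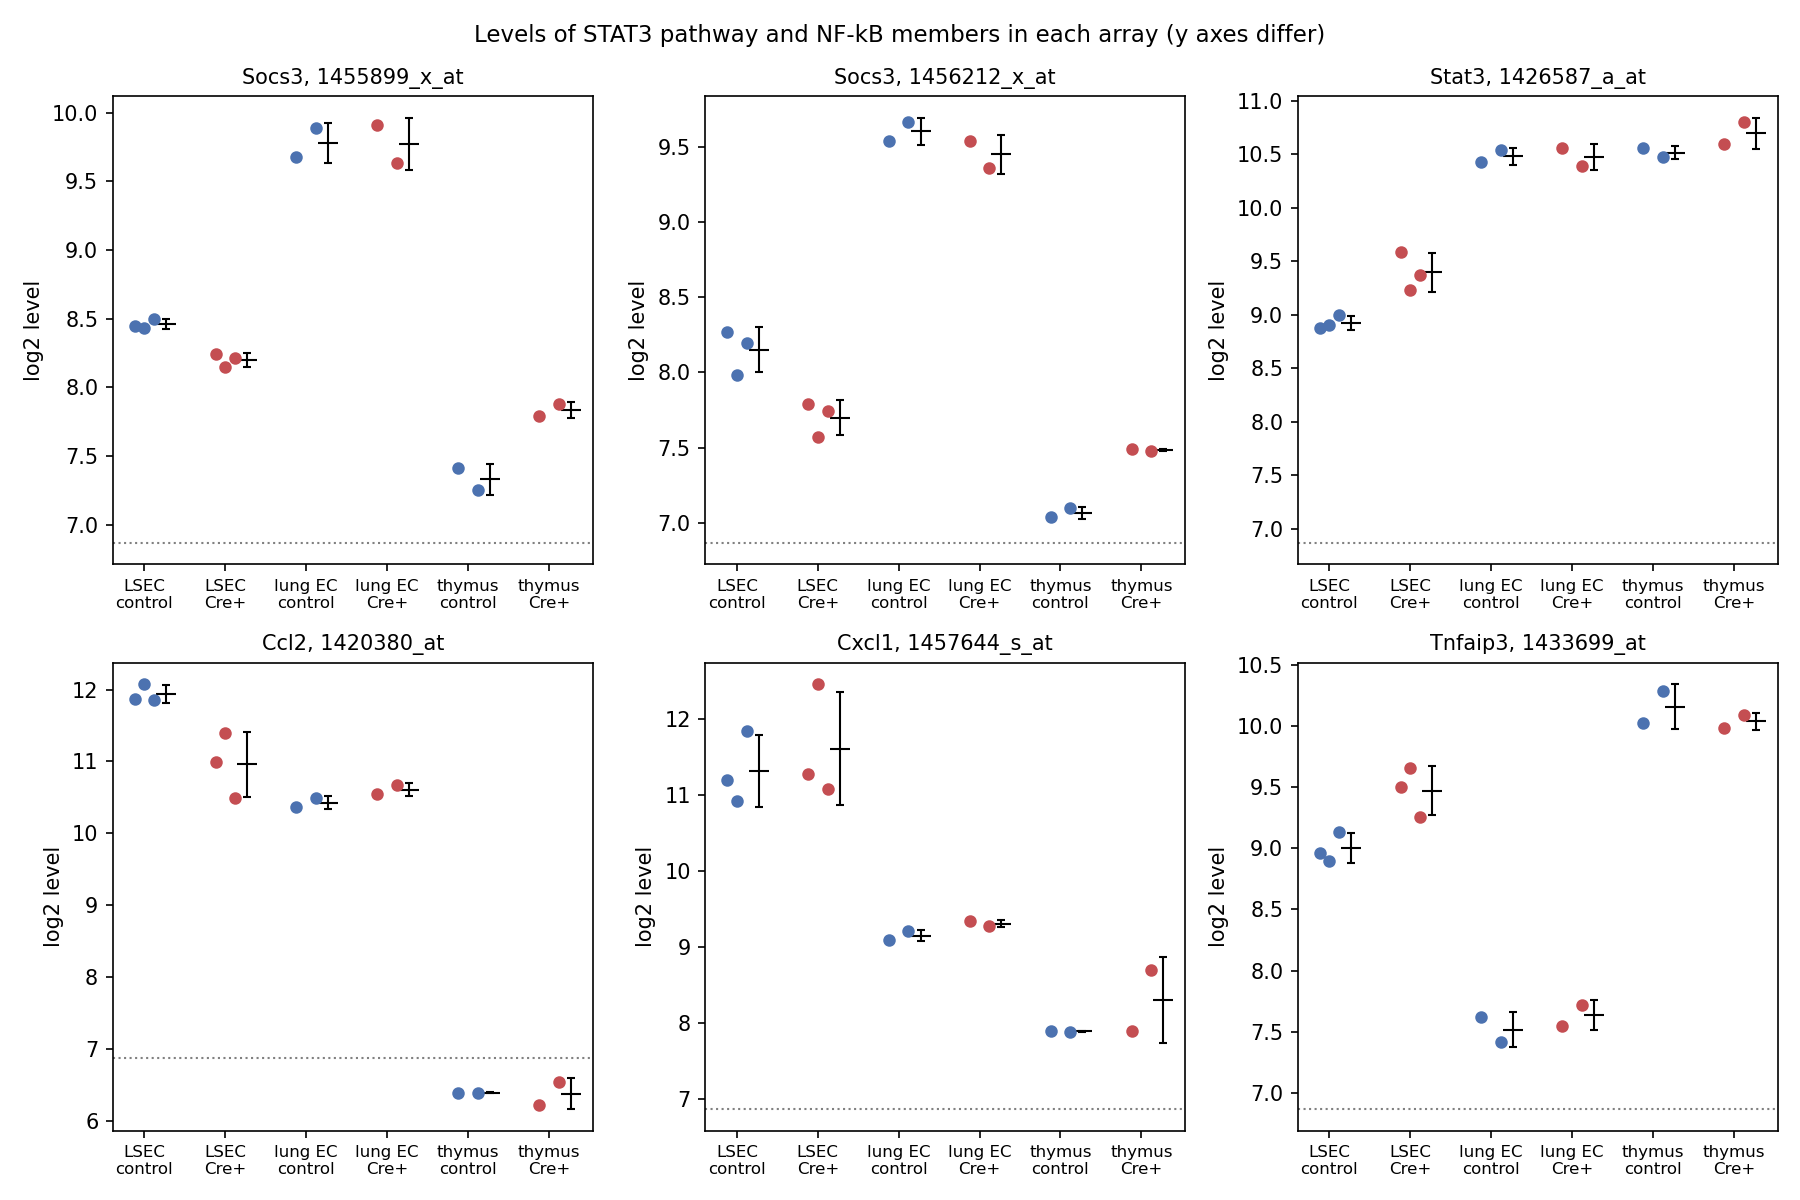
Log2 level on each of the 14 arrays (dots), by group, for Socs3 (its 2 brightest probe sets), and the brightest probe set of Stat3, Ccl2, Cxcl1 and Tnfaip3, with group means and SD (black bars) and the filter limit (dotted line); the y axes differ. In LSEC the Cre+ arrays lie under the controls for Socs3 and Ccl2 and above them for Stat3 and Tnfaip3, and the groups overlap for Cxcl1; Socs3 is highest in lung.

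In all, 1 of the 24 tested member probe sets rose and 2 fell in Cre+ LSEC, which is 12.5% against 5.23% of all 27022 probe sets. The share rising over all probe sets was 2.62% and the share falling 2.61%. At an unadjusted p under 0.05 the members counted 9 of 24 against 19.1% of all, and the arrays of the genotypes did not overlap on 10 of 26 member probe sets, Il6 and Lrg1 included, against 22.8%. All 26 member probe sets passed the filter, Il6 and Lrg1 because of their level in lung, since the mean of both LSEC groups was under the limit for each.
The 3 calls fell on 3 genes, with opposite signs for the kinase-activated factor Stat3 and its target Socs3. Marker genes shifted array by array as given above. The list of genes that respond to cell handling, such as Egr1 (-1.76) and Atf3 (-1.59), had 6 of 13 genes lower in Cre+ LSEC, against 2.94% of all genes. Its mean log2 level was 9.96 to 10.40 in control and 9.47 to 9.65 in Cre+. The difference between the 3′ and 5′ beta-actin control probe sets, a measure of RNA quality, was 0.168 to 0.585 in control and 0.0635 to 0.249 in Cre+ LSEC, while that of Gapdh was -0.269 to -0.0908 and -0.260 to -0.196. The part of cell handling and RNA quality in the LSEC differences was not tested.

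**Figure D4:**
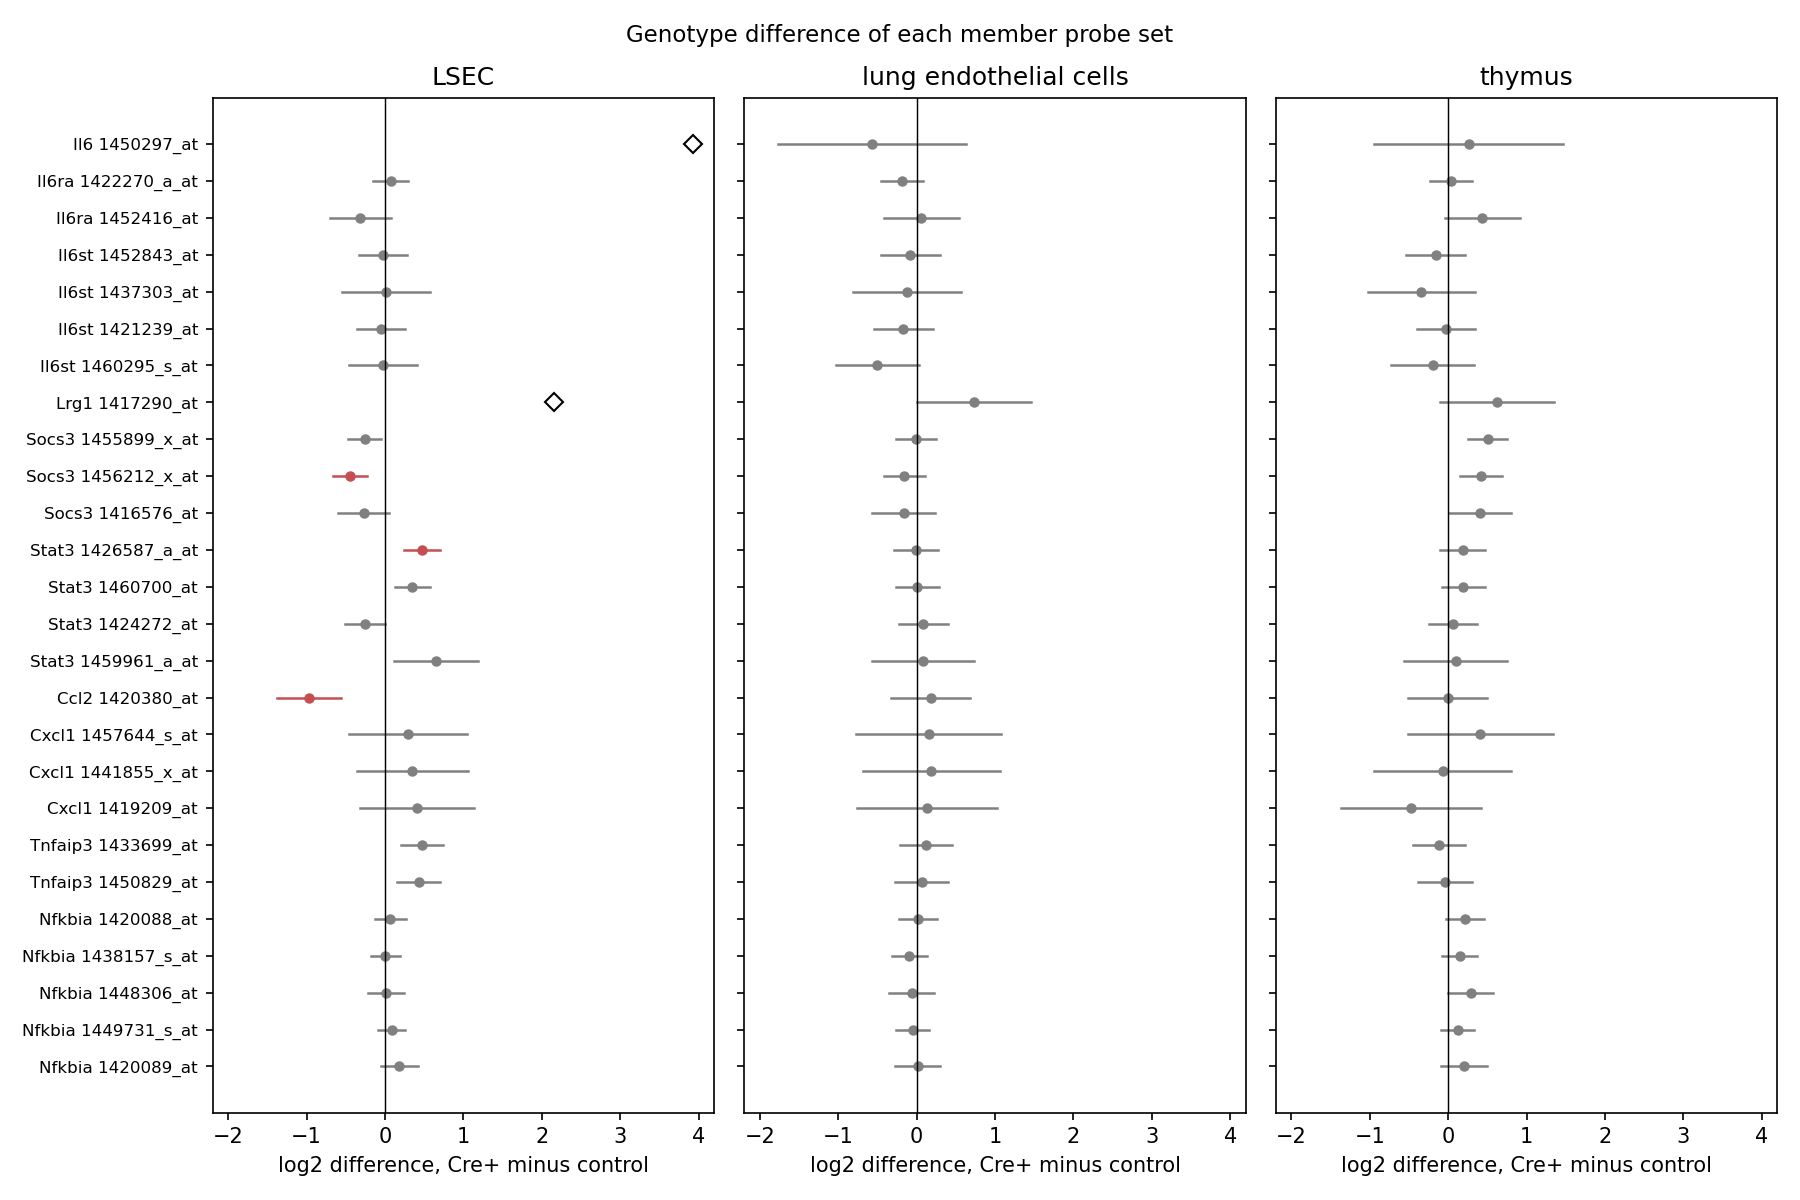
Log2 difference between Cre+ and control arrays with its 95% interval for the 26 member probe sets in LSEC, lung endothelial cells and thymus; red marks the 3 that passed the limma test, and open diamonds mark Il6 and Lrg1 in LSEC, which were chosen by that difference and not tested. Outside LSEC no member passed.

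In lung endothelial cells 0 of 26 member probe sets passed in limma, where 0.0333% of all did; at an unadjusted p under 0.05 there was 1 of 26, Lrg1, against 4.73% of all. The lung arrays of the genotypes did not overlap on 9 of 26, against 39.3%. In thymus 0 of 26 passed in limma against 0.448% of all, with 4 of 26 at an unadjusted p under 0.05 against 11.5%, and 12 of 26 without overlap against 42.4%.
Of those 4 in thymus, 3 were the Socs3 probe sets. The brightest read 7.41 and 7.25 in control and 7.79 and 7.88 in Cre+ thymus, a difference of +0.50 (limma adjusted p = 0.104), and the others differed by +0.42 and +0.40; no Socs3 probe set overlapped between the thymus genotypes. Stromal markers stood higher in the same Cre+ thymus arrays: the mesenchymal list had a mean log2 level of 7.72 to 7.82 in control and 8.19 to 8.28 in Cre+, the thymic epithelial list 9.70 to 9.83 and 10.07 to 10.11, and the macrophage list 8.01 to 8.09 and 8.29 to 8.51. Their part in the Socs3 values was not tested.

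The genotype difference itself was compared between tissues. Between LSEC and thymus, 2 of 24 member probe sets passed, both Socs3 and both lower in LSEC, which is 8.33% against 1.65% of all probe sets and 0.947% in that direction (0.703% in the other). The difference of differences was -0.77 (SE 0.148, limma adjusted p = 0.0300) for the brightest and -0.86 (SE 0.156, limma adjusted p = 0.0236) for the second brightest, and the third Socs3 probe set gave -0.68 without passing. The adjusted p rose as high as 0.144 and 0.0912 when single arrays were left out, and with either thymus control or with Cre+ thymus replicate 2 left out no member passed. Neither passed in the values as deposited (0.0683 and 0.0651) or with no filter (0.0922 and 0.0794).
Between LSEC and lung 0 of 24 passed in limma against 0.326% of all, and 2 of 24 had an unadjusted p under 0.05, against 9.97%. These were Ccl2, at -1.15 (limma adjusted p = 0.153; 0.0336 without Cre+ LSEC replicate 2), and Stat3, at +0.48 (adjusted p = 0.345). A fall of Ccl2 in LSEC but not lung is therefore not shown to differ between these cells.

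The control arrays give the levels of the pathway in the LSEC and lung endothelial samples without Cre. The lung samples also held markers of other cell types, with values given below. Of 24 tested members 16 differed, 9 higher and 7 lower in LSEC, which is 66.7% against 43.3% of all probe sets (23.3% higher and 20% lower). The arrays of the 2 groups did not overlap on 20 of 26 member probe sets, against 66.2% of all. NF-kB-responsive genes were higher in control LSEC: Ccl2 by 1.51 (2.85-fold), the 3 Cxcl1 probe sets by 1.77 to 2.57, Tnfaip3 by 1.48 and 1.05 and Nfkbia by 0.26 to 0.97 on the 3 of 5 probe sets that passed. The STAT3 arm was lower: Socs3 by -1.32, -1.45 and -1.90, Stat3 by -1.56, -0.68 and -0.98 on the 3 of 4 that passed, and 1 Il6ra probe set by -0.56. Of the 16 calls, 13 had both groups above the filter limit. The Stat3 value of -0.98 compares 2 group means under it (5.50 and 6.48; that probe set passed the filter through thymus), so it carries no size, and it was lost without control lung replicate 1 (adjusted p = 0.107). Control LSEC was under the limit for the Il6ra probe set, whose call was lost without control LSEC replicate 2 or either control lung array (adjusted p up to 0.247), and control lung was under it for the dimmer Tnfaip3 probe set. The smallest Nfkbia value was lost without control LSEC replicate 1 or 2 or control lung replicate 1 (up to 0.305), and the middle one without the latter (0.0595). Il6st did not pass on any of its 4 probe sets, at -0.22 to +0.17. Il6 and Lrg1, as descriptions, were 2.85 and 4.10 lower on the log2 scale in control LSEC than in control lung, or 7.22-fold and 17.2-fold.
On its brightest probe set, Socs3 in Cre+ LSEC (8.15 to 8.24) was under control LSEC (8.44 to 8.50) and far under lung (9.64 to 9.91), and thymus was lowest (7.25 to 7.88). Ccl2 stood at 10.36 to 10.67 in lung, overlapping Cre+ LSEC (10.49 to 11.40), and at 6.22 to 6.53 in thymus. Mesenchymal markers were also higher in the lung arrays, with a summed level of 26190 to 31160. In control lung, lung epithelial markers summed to 12880 to 13170 and pan-endothelial markers to 9253 to 11120. In control LSEC the mesenchymal, lung epithelial and pan-endothelial lists summed to 3534 to 4380, 1571 to 1981 and 16220 to 19230. Macrophage markers summed to 10640 to 23410 in control LSEC and 16470 to 18680 in control lung. Of the 13 genes that respond to cell handling, 6 were higher and 3 lower in control LSEC than in control lung. Over all genes the shares were 24.8% and 19.8%. The mean log2 level of this list was 9.96 to 10.40 in control LSEC and 9.15 to 9.19 in control lung. The part of mesenchymal, epithelial and macrophage cells and of cell handling in the control differences was not tested.

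The rest of the pathway was read from 7 lists, 1 brightest probe set per gene, and set against 5.45% of 13035 genes passing in LSEC (2.51% higher, 2.94% lower; median log2 difference 0.0064). STAT3 target genes had 5 of 17 passing, 4 higher and 1 lower, with a median of 0.08. The largest was Lcn2, the iron-siderophore-binding lipocalin, which read 8.82, 8.48 and 9.37 in the controls and 10.97, 10.81 and 9.85 in Cre+ LSEC, a rise of 1.66 (SE 0.290, limma adjusted p = 0.00784). Cyclin D1 (Ccnd1) rose by 0.91, the interleukin 4 receptor chain Il4ra by 0.67 and the atypical IkB protein Bcl3 by 0.57, and the AP-1 gene Junb fell by 0.52. The acute-phase gene Saa3 (+0.76) did not pass. The acute-phase gene Hp did not pass either. It was under the filter limit on every LSEC array (2.60 to 5.07 in control, 3.64 to 5.99 in Cre+), so no size is given. Lcn2 is also a neutrophil gene, so the neutrophil markers above bear on it, and Junb is also one of the handling-response genes.

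NF-kB target genes had 6 of 22 tested passing, 2 higher and 4 lower, with a median of -0.082. The cytokine gene Il1a read 6.31, 6.55 and 7.15 in the controls and 8.46, 8.56 and 8.38 in Cre+ LSEC, a measured difference of 1.80 (limma adjusted p = 0.000260). Its control mean was under the filter limit and it passed the filter only through LSEC, where Cre+ was high, so it had to differ; measured from the limit its Cre+ mean was 1.60 higher. The mitochondrial superoxide dismutase Sod2 rose by 0.68. The adhesion molecule Vcam1 read 10.56, 10.43 and 10.61 in the controls and 9.91, 9.25 and 9.26 in Cre+ LSEC, a fall of 1.06 (limma adjusted p = 0.00280). Ier3 fell by 1.13 and the adhesion molecule Icam1 by 0.55. The chemokine gene Cxcl10 is the remaining call, but both LSEC group means were under the limit (6.65 and 5.77) and it passed the filter through thymus, so no size is given. Genes of this list therefore moved in both directions. Junb, Sod2 and Icam1 lie outside the naming rule and were named after their values were seen.

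The upstream lists are set beside 2.51% of all genes higher and 2.94% lower, and 19.1% of all probe sets at an unadjusted p under 0.05. At that unadjusted p the NF-kB core list had 4 of 10, the receptor list 3 of 9 and the stability regulators 2 of 7. Among NF-kB core genes and inhibitors 2 of 10 tested rose, the deubiquitinase Cyld (0.57) and the kinase Ikbkb (0.34), and among receptors, JAKs and sheddases 1 of 9 fell, the kinase Jak1 (by 0.52, limma adjusted p = 0.0122). Of 7 regulators of Il6 message stability 1 fell, the stabilising factor Arid5a (by 0.56, limma adjusted p = 0.00581). None of 5 tested Il6-family ligands and none of 6 STAT inhibitors other than Socs3 passed in limma (2 and 1 at an unadjusted p under 0.05); Socs1 was dim, at 2.50 to 3.82 in control and 3.14 to 4.50 in Cre+ LSEC. Of the 15 called list genes, Ccnd1, Il4ra and Vcam1 were called under every alternative run for them (17 each). Il1a was called under its 16 as well. It passed the filter only through LSEC, where Cre+ was high, so this does not measure how firm its call is. A fit of only the LSEC arrays ended the calls of Lcn2, Jak1, Cyld, Arid5a, Bcl3 and Sod2 (adjusted p = 0.0750, 0.0857, 0.0908, 0.0569, 0.0681 and 0.0523). Junb, Ikbkb, Icam1, Cxcl10 and Ier3 each lost the call when some single array was left out, with adjusted p up to 0.0605, 0.0834, 0.0723, 0.111 and 0.0571; Cxcl10 lost it without any of 5 of the LSEC arrays, control replicate 1 being the exception.

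**Figure D5:**
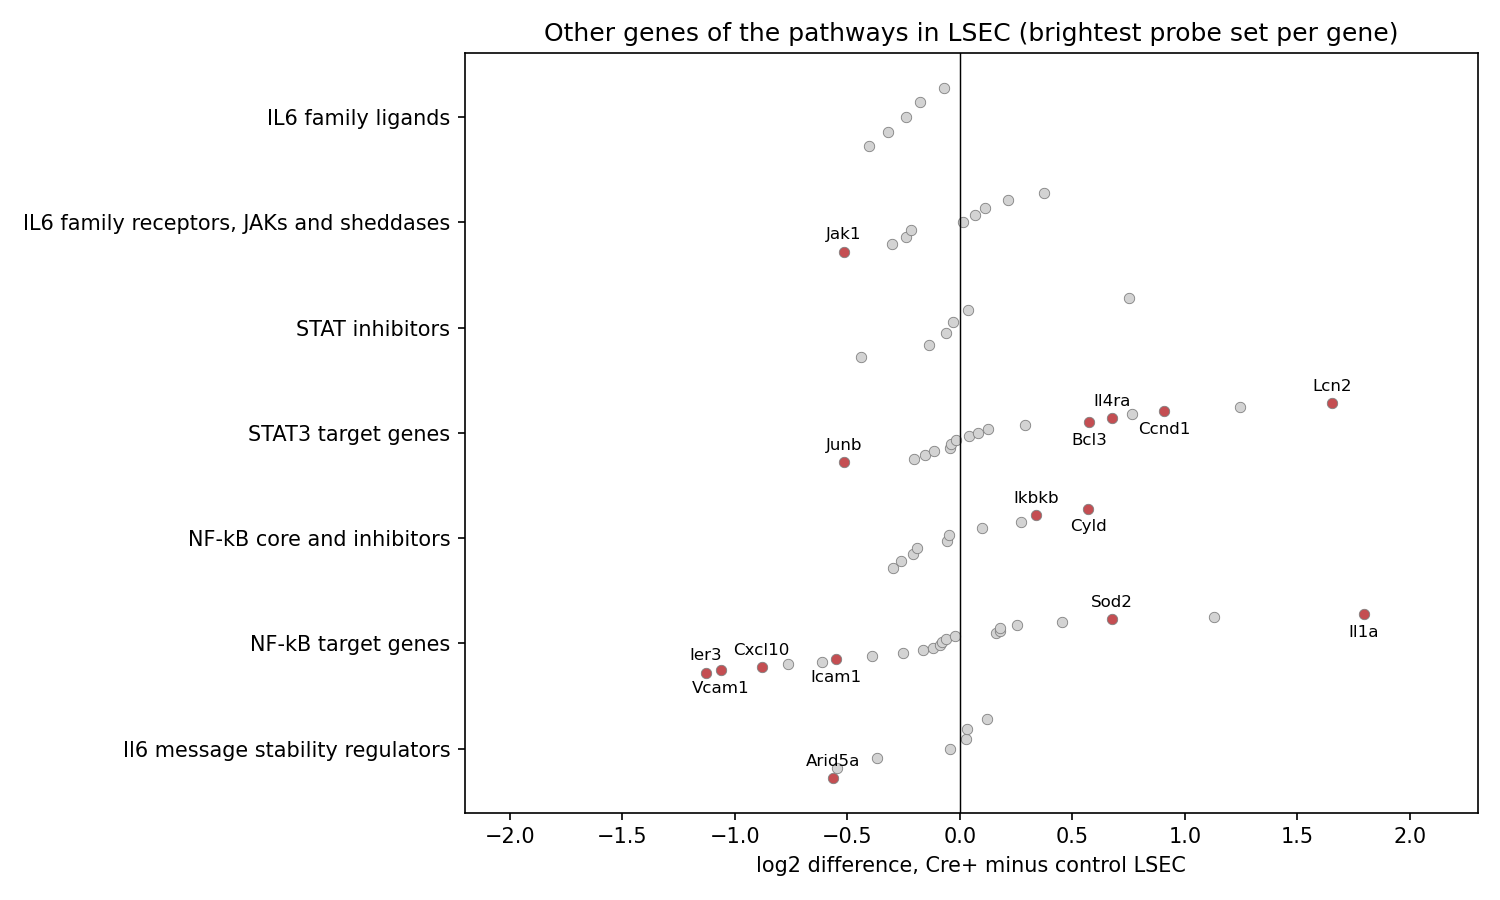
Log2 difference between Cre+ and control LSEC for the brightest probe set of each tested gene in the 7 pathway lists, with genes that passed the limma test in red and named. STAT3 targets have 4 genes up and 1 down, NF-kB targets 2 up and 4 down. Il1a, 1 of the 2 up, passed the filter only through LSEC, where Cre+ was high, so it had to differ.

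In lung and thymus 0 of 76 tested list genes passed in limma, where 0.046% and 0.384% of all genes did. An unadjusted p under 0.05 was reached by 2 and 12 of the 76, against 4.73% and 11.5% of all probe sets. The genotype difference of Il4ra was larger in LSEC than in lung by 0.76, and that of Il1a by 1.90 (limma adjusted p = 0.0213 for both), where 0.322% of all genes passed. Between LSEC and thymus Il1a differed by 1.73 and Vcam1 by -1.77 (limma adjusted p = 0.0150 and 0.00813), where 1.79% passed. Il1a was under the limit in control LSEC, lung and thymus and passed the filter only through LSEC, so its calls and sizes rest on Cre+ LSEC against levels near background. The Il4ra and Il1a differences against lung lost their call without control LSEC replicate 2 or without any one of the 4 lung arrays (adjusted p up to 0.131 and 0.106), and Il1a against thymus without either thymus control or Cre+ replicate 2 (up to 0.0744).

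Between the control LSEC and control lung arrays the STAT3 target and NF-kB lists repeated the split seen in the members, beside 44.7% of all genes passing and a median of 0.074. The part of cell handling, of macrophages and of the mesenchymal and epithelial cells of the lung samples in these list values was not tested. Of 17 STAT3 targets 10 were lower and 2 higher in control LSEC than in control lung (median -0.86), among them haptoglobin (Hp), Timp1 (-3.85), Lcn2 (-2.78) and Ccnd1 (-2.12). Hp was under the filter limit in control LSEC, at a mean of 3.43, and measured from the limit the control lung mean was 2.74 higher. Of 22 NF-kB targets 11 were higher and 2 lower (median 0.45), among them Cxcl2, Ccl5 (+1.30), Sele and Cxcl5. Control lung was under the limit for Cxcl2 and Sele, and measured from the limit control LSEC was 3.72 and 0.87 higher. Cxcl5, one of the 2 lower, had both means under the limit (5.42 and 6.82), and its call was lost with no filter and without control LSEC replicate 1 or 2 or either control lung array (adjusted p up to 0.152). The Ccl5 call was lost without control lung replicate 2 (0.0695). The NF-kB core list had 6 of 10 higher and 1 lower, led by Tnip1 (+1.49) and Cyld (+0.82). Of 9 tested receptors, JAKs and sheddases 1 was lower, the oncostatin M receptor Osmr (-1.94), and 3 were higher, Il27ra, Lifr (+1.46) and Tyk2 (+0.48). That share is close to the 44.7% of all genes. Of 7 stability regulators 3 passed, again close to the share of all genes. All 3 were lower, Zc3h12a (regnase-1, which degrades the Il6 message), Zfp36l1 by 1.36 and Zfp36 by 0.88. Of the 43 list calls between the control groups 8 had 1 group mean under the limit, Il27ra, Zc3h12a and Il11 among them, and 2 had both. Among 5 tested ligands Il11 and Lif (-0.83) were lower, and among 6 STAT inhibitors 1 was lower, Socs2 (-1.74). The ligand Clcf1 was higher (+0.36), with a reversed sign when the probe sets of the gene were averaged. It had no call without control LSEC replicate 2 or 3 or either control lung array (adjusted p up to 0.180). Nfkbiz (-0.62), the lower gene of the core list, lost its call without control lung replicate 2 (0.0525).

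The genes whose log2 levels followed a member most closely over the 14 arrays were named as a description. The arrays fall into 3 tissues, and such a correlation draws on tissue differences as well as on genotype differences within LSEC. Il6 itself had a mean of 4.32 in control and 8.25 in Cre+ LSEC. Because Il6 and Lrg1 were chosen by their LSEC values, correlations with them are not independent of that choice. The genes nearest to Il6 were Mcam (r = 0.959), Mthfsd (0.955), Foxc2 (0.948), Timm10b (0.941) and Gucy1b1 (0.939). Each had a higher mean in Cre+ than in control LSEC, as for Mcam (10.28 against 8.27). The genes nearest to Lrg1 were Ctsk (0.982), Galnt18 (0.981), Serpinh1 (0.978), Nsg1 (0.974) and Col5a2 (0.973). For Socs3 they were Fhl1 (0.991), Osmr (0.990), Rrbp1 (0.988), Oat (0.987) and Selenbp1 (0.986). Among the 3 members the correlation was 0.766 between Il6 and Lrg1, 0.898 between Lrg1 and Socs3 and 0.535 between Il6 and Socs3.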

How the data were processed

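RNA of 14 samples was labelled as biotinylated cRNA and hybridised to Affymetrix mouse arrays, per the labels' protocols. The deposited values are log2 levels per probe set, between 0 and 13.8; the base is inferred from this range, and how the authors summarised and normalized them is not given in the sources used here. Gene symbols came from the platform annotation: 34945 probe sets had 1 symbol, 932 several and 9160 none, and 64 control probe sets were left out.

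Array medians spread by 0.282, over the limit of 0.2 set for it, so values were quantile-normalized. limma 3.58.1 in R 4.3.3 fitted 6 group means (8 residual and 3.04 prior degrees of freedom) to the 27022 probe sets with at least 1 tissue mean at or above a log2 level of 6.868 (percentile 40 of all). A probe set passed the test, rose or fell where the Benjamini-Hochberg adjusted p over these was at most 0.05. A single-value exact permutation test cannot go below p = 0.1 with 3 against 3 or 0.333 with 2 against 2 arrays, so none was used. Levels are set between tissues on the same probe set, never between probe sets.

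Members and lists were chosen with earlier results of these data known. All member probe sets were followed; per list and comparison the 4 largest called genes were named, each by its brightest probe set, and the 5 genes most correlated with Il6, Lrg1 and Socs3. On simulated data with 200 of 27022 probe sets changed, log2 changes of 0.5, 1 and 2 were recovered at 26.9%, 82.1% and 98.5% in LSEC, 11.9%, 49.3% and 95.5% in lung and 17.9%, 68.7% and 92.4% in thymus. The number of arrays limits the precision. No pairing was used in the main fit. The labels give only a replicate number, and the correlations of same-numbered arrays cannot show whether they were paired. Alternatives are listed in the closing section. Sequences came from RefSeq, GRCm38.p6.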

Additional observations from a re-analysis of the deposited data

Results flagged for a closer look

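The genotype difference of Socs3 differed between LSEC and thymus, by the interaction test in limma: it was lower in LSEC by -0.77 on its brightest probe set and by -0.86 on the second brightest, with lower Cre+ arrays in LSEC and higher Cre+ arrays in thymus. The difference of Il4ra between LSEC and lung was +0.76, that of Il1a was +1.90 against lung and +1.73 against thymus, and that of Vcam1 was -1.77 against thymus, each by the same test. Il1a was under the filter limit in every group but Cre+ LSEC, through which it passed the filter, so it had to differ. Its calls are therefore a description and its sizes are uncertain. No group held 4 or more arrays, so none was tested for an outlying array.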

How the results depend on the processing

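The main counts of member probe sets passing were 3 in LSEC, 0 in lung, 0 in thymus, 0 for LSEC against lung, 2 for LSEC against thymus and 16 between control LSEC and control lung. The LSEC count became 1 with no filter, 5 with trend and robust estimation, 0 with only the arrays compared and 1 with the replicate block. The LSEC against thymus count became 0 as deposited, with no filter and with the replicate block, and 1 with median centring, array weights, only the arrays compared, and either gene-level summary; LSEC against lung became 1 with array weights (Ccl2), and the control comparison gave 6 genes by brightest probe set and 7 by the mean. Leaving out 1 array gave 1 to 2 in LSEC, 0 to 0 in lung and thymus, 0 to 1 and 0 to 2 for the 2 comparisons of differences, and 12 to 16 for the controls; a lone array left in a group is assumed to vary like the others. Il6 in thymus, +0.26, ranged from -0.63 to 1.15 with 1 array left out and was also below 0 without Cre+ replicate 1 (-0.04), and Clcf1 between the controls turned to -0.25 by the mean of its probe sets. Over all probe sets the LSEC count of 1412 became 809 with no filter, 495 with only the arrays compared and 600 with the replicate block; thymus moved from 121 to between 6 and 329, lung from 9 to between 0 and 60, LSEC against lung from 88 to between 0 and 262, and LSEC against thymus from 446 to between 29 and 1016. For single member probe sets, 730 of 798 alternative values kept direction and side of the threshold, 15 gained and 51 lost the call and 2 changed sign; the 15 list-gene calls in LSEC were kept in 202 of 254; under the replicate block Lcn2, Jak1, Cyld and Arid5a were among those lost. Control LSEC and thymus lie under the limit for Il6 and Lrg1, which limits the size of any difference there. Il6 and Lrg1 rose by 3.91 to 3.92 and 2.13 to 2.15 under the 3 scalings. Deviations from the group mean of same-numbered arrays correlated at -0.242, -0.067 and -0.171 in LSEC, -0.211 in lung and 0.068 in thymus. With 2 arrays in a group such deviations are forced to mirror each other. These values therefore cannot show whether same-numbered arrays were paired. With lung numbers crossed, an alternative chosen after seeing the data, lung still had 0 calls in limma.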
